A study of Mus musculus with 3 samples.

Results

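Single-cell RNA sequencing of tdTomato-sorted larynx cells held a small group of Trp63-positive cells that held at least 3 of 7 marker genes, among them Ntng1, Cntn5 and Wnt5b. They are described here as Ntng1/Cntn5/Wnt5b cells, although 397 of the 763 held neither Ntng1 nor Cntn5. The cells were chosen by measured values. A barcode had to hold 500 to 8000 genes, 1000 to 40000 unique molecular identifiers (UMIs, counted RNA molecules), at most 8% mitochondrial UMIs, and not UMIs of all of Krt5, Ltf, Scgb3a1 and Dcn. It was a member with at least 1 Trp63 UMI, fewer than 2 Nkx2-1 UMIs, no Clca3a2 UMI, fewer than 40 Krt5 and Krt14 UMIs per 10000, and UMIs of at least 3 of the 7 marker genes Cntn5, Ntng1, Nkain3, Gpc5, Wnt5b, Mab21l2 and Kcnh1. Of 60530 barcodes, 41033 were kept, 27045 of these held Trp63, and 763 were members. Libraries 1, 2 and 3 gave 209, 126 and 428 members.

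The mice carried 1 Lrig1CreERT2 and 1 ROSA26 CAG-LSL-tdTomato allele, so that tamoxifen makes cells that express Lrig1 red, together with their later progeny. Larynges were taken 24 h after recombination, and the age of the mice is not given in the sources used here. Each library pooled 10 larynges, from 5 male and 5 female mice, and all 3 libraries belong to this single condition. The comparisons below are therefore between groups of cells within a library, with n = 3 libraries. Wild-type and reporter-only mice served to set the sorting gates and gave no library.

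Basal cells are the stem and progenitor cells of stratified and pseudostratified epithelium, and the transcription factor p63, product of Trp63, is their common marker. They rest on the basement membrane through laminins and integrins and give rise to keratinised squamous cells or to secretory and ciliated airway cells, depending on the region. Nkx2-1 marks the airway side of the foregut. Netrin-G1, contactin-5 and their partners are cell surface proteins known mainly from neurons, and Wnt5b is a secreted Wnt of the kind that usually signals without beta-catenin.

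Members made up 3.29% of the Trp63-positive cells in library 1 (209 of 6350, 95% Wilson interval 2.88 to 3.76%), 2.64% in library 2 (2.22 to 3.13%) and 2.69% in library 3 (2.45 to 2.95%), a mean of 2.87% ± 0.363 (SD, n = 3). Intervals cover counting error only. The share depended on the limits: it was 10.5% with at least 2 of the 7 marker genes and 1.07% with at least 4. When each cell was thinned to 5000 UMIs before the rule was applied, the share was 2.21% ± 0.642. The other 26282 Trp63-positive cells comprised 7096 with at least 2 Nkx2-1 UMIs, 2436 with Clca3a2, 2603 high in Krt5 and Krt14, and 14147 that met these limits but had fewer than 3 marker genes. Members were somewhat shallower, with a median of 12023 UMIs against 14451.5. The barcodes of a library held 211727921, 147898790 and 413632222 UMIs in all, of which members supplied 2685915, 1809654 and 5699849. A total of 307 barcode sequences occurred in more than 1 library, 10 of them among members, and none was a member in more than 1 library. Doublets were not removed, and 95 members (12.5%) resembled simulated doublets, against 11.2% of the other Trp63-positive cells.

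The 7 marker genes chose the members, so their levels are a description with no test. Cntn5, contactin-5, an immunoglobulin-family adhesion protein, was at 255, 58.0 and 56.8 UMIs per 1000000 (CPM) in the summed members of libraries 1, 2 and 3, and at 5.34, 2.20 and 3.26 CPM in the other Trp63-positive cells. Ntng1, netrin-G1, a membrane-anchored netrin, was at 329 (library 1), 104 and 156 CPM against 12.3, 4.93 and 8.63 CPM. Both were highest in the members of library 1. Nkain3, of a family of proteins that bind the sodium pump, was also highest in library 1, at 336, 129 and 140 CPM against 20.2, 7.87 and 17.1 CPM. The proteoglycan gene Gpc5 (165, 186 and 137 CPM) and the Wnt ligand gene Wnt5b (208, 165 and 181 CPM) were more even over the libraries. Mab21l2, a gene of the Mab21 family active in the developing eye and head, was the least abundant, at 33.5, 38.1 and 30.7 CPM. Kcnh1, a voltage-gated potassium channel of the EAG family, had the smallest ratio, with 152, 206 and 140 CPM in members against 52.7, 49.1 and 43.7 CPM in the others.

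**Figure D1:**
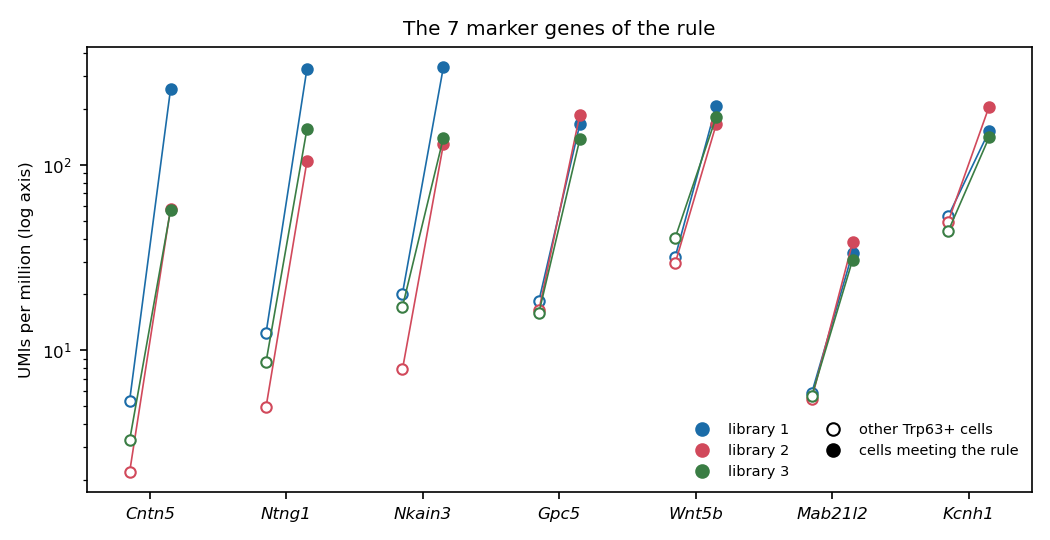
CPM of the 7 marker genes of the rule (log axis) in members (filled) and the other Trp63-positive cells (open), joined within a library. Cntn5 is at 255 CPM in library 1 members and at 58.0 and 56.8 CPM in the other libraries, whereas Gpc5, Wnt5b, Mab21l2 and Kcnh1 lie close together.

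The marker genes were unevenly spread over the members. Wnt5b was detected in 86.8% and Kcnh1 in 83.0% of members, Nkain3 in 52.8%, Gpc5 in 46.8%, Ntng1 in 42.5%, Mab21l2 in 24.8% and Cntn5 in 18.7%. Wnt5b and Kcnh1 were also the commonest in the other Trp63-positive cells, at 27.5% and 32.3%, while Cntn5 was found there in 0.993% and Ntng1 in 3.00%. As a measure of free RNA, the shares in 476 endothelial cells (median 7820.5 UMIs) were 5.04% for Kcnh1, 0.630% for Nkain3, 0.210% for Ntng1 and 0.840% for Cntn5. A few cells held most of the rarer transcripts: the top 10% of members (76 cells) carried 89.0% of the Cntn5 UMIs and 66.0% of those of Ntng1, against 35.5% for Wnt5b. The highest single cells held 61 Cntn5, 71 Ntng1 and 86 Nkain3 UMIs. The members fell into 67 combinations of the marker genes, and the commonest, Gpc5 with Wnt5b and Kcnh1 (125 cells), held neither Ntng1 nor Cntn5. Most members were close to the limit: 492 (64.5%) held exactly 3 marker genes, and 1946 cells that met the other limits held exactly 2. Just inside the limit, 24.0% of cells held Ntng1 and 6.10% held Cntn5, while just outside it the shares were 6.94% and 1.90%. Of the 692 members with at least 5000 UMIs, 44.5% still held 3 marker genes after thinning to that depth, and 71 shallower members were left out.

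The bases before the start sites of Cntn5, Ntng1 and Nkain3 are shown because these 3 marker genes had the highest member ratios, with log2 values of 4.44, 4.27 and 3.61. Cntn5 lies on GRCm39 chr9:9658790-10904780, Ntng1 on chr3:109687356-110051327 and Nkain3 on chr4:20111115-20778866, all on the minus strand. The 250 bases before the canonical transcript start, read 5′ to 3′ on the gene's strand from the GRCm39 genome with GENCODE vM39, span chr9:10904781-10905030, chr3:110051328-110051577 and chr4:20778867-20779116. Capitals mark CTTTG or CAAAG, the core that TCF and LEF factors of the Wnt pathway recognise, searched on both strands.
Cntn5: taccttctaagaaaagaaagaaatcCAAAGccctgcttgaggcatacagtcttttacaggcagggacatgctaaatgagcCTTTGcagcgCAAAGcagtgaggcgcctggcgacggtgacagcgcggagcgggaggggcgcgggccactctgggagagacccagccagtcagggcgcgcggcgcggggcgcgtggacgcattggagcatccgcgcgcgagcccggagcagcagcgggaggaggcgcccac
Ntng1: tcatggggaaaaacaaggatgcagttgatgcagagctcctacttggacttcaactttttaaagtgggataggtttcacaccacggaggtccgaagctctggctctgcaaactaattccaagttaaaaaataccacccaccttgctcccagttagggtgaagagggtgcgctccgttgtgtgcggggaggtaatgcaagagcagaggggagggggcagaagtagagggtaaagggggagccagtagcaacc
Nkain3: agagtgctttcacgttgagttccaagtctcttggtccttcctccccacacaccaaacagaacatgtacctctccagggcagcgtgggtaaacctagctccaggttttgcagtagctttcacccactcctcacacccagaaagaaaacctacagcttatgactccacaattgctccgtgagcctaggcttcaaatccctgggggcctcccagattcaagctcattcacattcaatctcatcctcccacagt
The Cntn5 stretch held 3 such matches and the others held none. The core occurred in 49.3% of the 21757 protein-coding promoters of the same length and in 2 of the 7 marker genes, so these matches describe the letters only.

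The label of basal cells was checked against markers the rule did not use. Members were Trp63-positive by the rule, and their summed Trp63 level was 907, 985 and 1024 CPM against 689, 638 and 764 CPM in the others. None of the 24 counted basal markers outside the rule was called higher or lower (a call is explained below), with a median log2 ratio of 0.01. Itga6 and Itgb4, the hemidesmosome integrins, were at 368, 320 and 361 CPM and at 284, 297 and 296 CPM in members, against 378, 363 and 400 CPM and 284, 297 and 312 CPM. Col17a1, the hemidesmosome collagen, was at 257, 258 and 288 CPM against 259, 227 and 292 CPM. The basal keratin Krt15 was at 1846, 2365 and 3729 CPM against 3382, 3528 and 5835 CPM. Krt15 and Itga6 were below the other cells of the same library in all 3 libraries, with mean log2 ratios of -0.70 and -0.12, while Itgb4 and Col17a1 were not. The 24 markers summed to 7204, 7861 and 9378 CPM in members against 8810, 8785 and 12038 CPM, and so were lower in each library.

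Markers of other cell types were given as sums over each list. The 14 neuron and glia markers summed to 20.5, 21.0 and 17.7 CPM in members against 24.0, 15.3 and 15.8 CPM, and Snap25, Foxd3, Elavl4 and Tubb3 had no UMI. The 10 neuroendocrine markers summed to 2.61, 1.11 and 1.75 CPM, against 27.7, 22.8 and 6.60 CPM. Endothelial markers summed to 43.9, 1.11 and 4.39 CPM against 101, 7.88 and 6.16 CPM, and muscle satellite cell markers to 31.6, 54.2 and 71.0 CPM against 52.8, 36.1 and 42.9 CPM. The 10 immune markers summed to 482, 449 and 202 CPM against 639, 294 and 301 CPM, and the fibroblast markers other than Dcn to 214, 62.4 and 243 CPM against 273, 66.3 and 286 CPM. Myoepithelial markers, the smooth muscle genes of cells that wrap gland acini, summed to 250 CPM in library 1 members but to 13.3 and 41.6 CPM in libraries 2 and 3, against 42.1, 14.9 and 34.5 CPM in the other cells. Acta2 was at 65.2, 0 and 9.30 CPM and Myh11 at 69.2, 0 and 2.11 CPM in members, while Actg2 and Oxtr had no UMI. In library 1, 11 of 209 members held at least 3 of the 8 myoepithelial genes, against none of 126 and 2 of 428, and these 11 cells carried 16.9% of that library's member Cntn5 UMIs and 23.4% of its Ntrk3 UMIs. The gland acinar markers other than Ltf summed to 946, 722 and 747 CPM in members against 1109, 916 and 988 CPM, lower in each library. Bpifa2, Prol1 and Pip of that list had no UMI in members. Ltf, lactoferrin, a gene of the barcode limit, differed by library, at 2110, 81.2 and 1564 CPM in members against 471, 344 and 345 CPM. The pericyte and smooth muscle list shares Acta2, Myh11 and Tagln with the myoepithelial list, so its sums are not a separate observation. They were 189, 12.2 and 43.2 CPM against 46.5, 24.0 and 43.7 CPM. Dcn, a stromal proteoglycan used in the barcode limit, was above the other cells in every library, at 1287, 635 and 832 CPM against 743, 301 and 450 CPM. Of the tuft cell markers Dclk1 was called higher while Trpm5 and Il25 had no UMI, and of 4 counted ciliated markers Tppp3 was called lower. Of 7 counted gland acinar markers Sox9 was called higher and Tff2 lower. The part of these transcripts in the results was not tested, and values without the myoepithelial cells are given below.

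**Figure D2:**
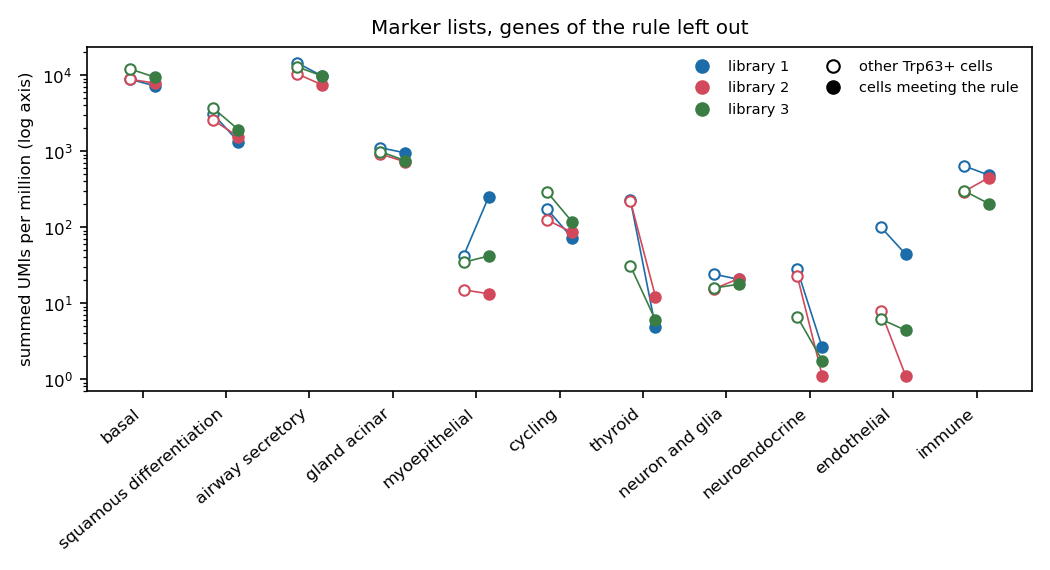
Summed CPM of marker lists (log axis), genes of the rule left out, in members (filled) and the other Trp63-positive cells (open), joined within a library. The basal and squamous lists are both lower in members of every library, the squamous list by more, and the myoepithelial list is raised in library 1 members (250 CPM).

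Cntn5 and Ntng1 split the members into 2 groups of like size that differed in genes outside the rule. A UMI of Cntn5 or Ntng1 was present in 366 members (121, 57 and 188 per library), and 397 had neither. Sox9, a transcription factor of duct, gland and cartilage progenitors, was detected in 59.6% of the former and 13.9% of the latter, and Ntrk3, the receptor of neurotrophin-3, in 25.4% and 1.51%. The mean Sox9 level was 161 CPM in members with Cntn5 or Ntng1 and 17.6 CPM in members with neither, close to the 16.5 CPM of the Nkx2-1 cells. Ntrk3 was at 202, 61.1 and 47.2 CPM in members with Cntn5 or Ntng1 and at 0.785, 2.60 and 2.56 CPM in members with neither, so that its level in library 1 was well above the others. Kcnma1, a calcium-activated potassium channel, averaged 143 and 14.1 CPM, and Fst, the activin inhibitor follistatin, at 45.7 and 3.33 CPM. Gland products moved with the split in libraries 1 and 3 but not in library 2: Ltf was at 3996, 16.8 and 4026 CPM in members with Cntn5 or Ntng1 against 18.1, 118 and 34.7 CPM in the rest, and Scgb3a1, an airway and gland secretoglobin, at 5792, 44.3 and 980 CPM against 72.2, 32.9 and 28.7 CPM. Ltf and Scgb3a1 are both genes of the barcode limit, so their levels in members depend on the rule. That limit left out 8360 barcodes, of which 239 would have been members. The part of these gland products in the other differences was not tested. Luzp2 went the other way, at 6.77 and 27.0 CPM. The shares of the other 5 marker genes are not compared, since a member without Cntn5 and Ntng1 must by the rule hold 3 of them. Members with Cntn5 or Ntng1 had fewer UMIs per cell, a median of 9966.5 against 14118. Of the genes called higher in all members below, 42 were also at least 2-fold higher in each library in members with Cntn5 or Ntng1 than in the rest, where 0.946% of all genes counted were. In members with neither, 17 were at least 2-fold above the other Trp63-positive cells in each library, where 0.186% of all genes counted were. All members enter the choice of the higher genes, so nothing is read from these shares.

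**Figure D3:**
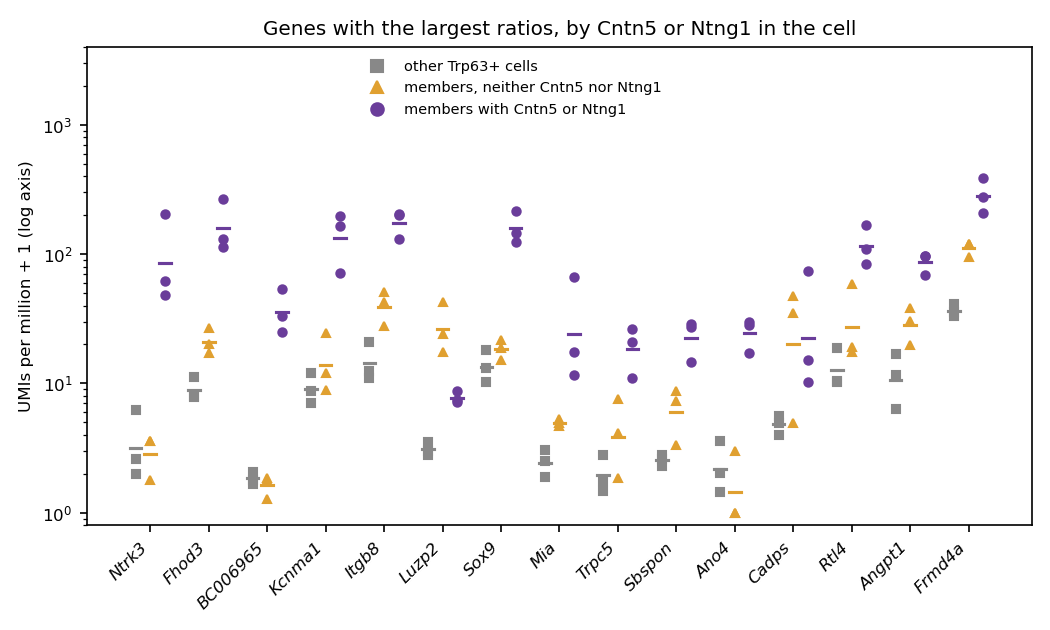
CPM + 1 (log axis) of the 15 genes with the largest member ratios, in members with a Cntn5 or Ntng1 UMI (circles), members with neither (triangles) and the other Trp63-positive cells (squares). Each point is a library and each bar the geometric mean. Sox9, Ntrk3, BC006965 and Ano4 are high in members with Cntn5 or Ntng1 and near the other cells in the rest, whereas Luzp2 is higher in members with neither.

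Across the transcriptome, a gene was called higher or lower in members where its CPM + 1 differed at least 2-fold from the other Trp63-positive cells in each of the 3 libraries, among 11312 genes outside the rule whose mean CPM was 5 or more. No test was made, since the members were selected on values of these same cells. By this measure 104 genes were higher (0.919% of genes) and 62 lower (0.548%), and nothing is read from these shares themselves. With TMM-scaled library sizes the counts were 82 and 76. In cells of 10000 to 20000 UMIs only, 51 genes were higher and 43 lower, and without library 3 the lower genes numbered 124. Of the 104 higher genes, 39 were also at least 2-fold above each of the 4 other groups of Trp63-positive cells in each library, and 80 above the cells that met the other limits with fewer than 3 marker genes. Of the 62 lower genes, 5 were lower than in each of the 4 groups.

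The largest ratio belonged to Ntrk3, at 106, 23.8 and 19.7 CPM in members against 5.22, 1.00 and 1.61 CPM. The log2 ratio averaged 3.58 ± 0.565 (SD, n = 3), in a gene named for the size of this ratio. Fhod3, a formin that assembles actin, was at 152, 53.0 and 60.2 CPM against 10.2, 7.05 and 6.79 CPM, and Itgb8, an integrin subunit that activates TGF-beta, averaged 98.0 CPM against 13.9 CPM, with a log2 ratio of 2.74 ± 0.240 (SD, n = 3). Sox9 followed at 120, 58.0 and 66.5 CPM against 17.2, 9.30 and 12.1 CPM, a 5.82-fold difference. BC006965, a long noncoding RNA on the opposite strand whose gene spans Sox9 on chromosome 11, was at 28.3, 12.2 and 9.30 CPM against 1.08, 0.671 and 0.784 CPM. Whether the counting kept the strands apart is not given in the sources used here, so reads of this RNA and of Sox9 cannot be separated with certainty. Kcnma1 was at 90.1, 85.7 and 33.7 CPM against 11.1, 7.70 and 6.01 CPM. Another pair of neighbours, Trpc5, a cation channel, and Rtl4, a retrotransposon-derived gene, lie 726 bases apart on opposite strands of the X chromosome and were both higher, at 14.9, 7.74 and 7.89 CPM against 1.80, 0.476 and 0.767 CPM and at 84.5, 70.7 and 43.2 CPM against 17.9, 9.49 and 9.25 CPM. Angpt1, the ligand of the endothelial receptor Tie2, was at 58.8, 58.6 and 44.2 CPM against 15.8, 5.35 and 10.5 CPM, and Frmd4a, a scaffold of epithelial polarity, at 202, 214 and 137 CPM against 40.1, 32.3 and 34.8 CPM. The remaining genes of the 15 were Luzp2, Mia, Sbspon, Ano4 and Cadps, with log2 ratios from 2.37 to 2.61. Cadps, which primes secretory vesicles, differed most between libraries, at 9.31, 24.9 and 56.5 CPM in members. With the myoepithelial cells left out, 102 genes were higher, 101 of them among the 104, and the mean Ntrk3 level of members was 42.8 CPM.

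Genes of differentiation, secretion and division were among those lower in members than in the other Trp63-positive cells as a whole. Krt13 and Krt4, keratins of suprabasal mucosal cells, were at 16.4, 63.0 and 126 CPM against 507, 275 and 520 CPM, and at 70.7, 89.0 and 174 CPM against 397, 307 and 473 CPM. Krt6a, a keratin of wounded and suprabasal epithelium, was at 5.96, 8.84 and 50.5 CPM against 140, 78.8 and 235 CPM. Of 19 counted squamous differentiation genes, 7 were lower (Lgals7, Krtdap, Krt13, Lgals3, Tgm1, Krt6a and Krt4) and none higher, with a median log2 ratio of -0.71 beside 0.02 over all 11312 genes. Bpifa1, an airway antimicrobial secretion, was at 2215, 709 and 1690 CPM against 6026, 3272 and 4030 CPM, and the club cell product Scgb1a1 and the mucin Muc5b were also lower, 3 of 18 counted airway secretory genes in all. Mki67, Top2a and Cenpf, which mark dividing cells, were lower, 3 of 7 counted cycling genes, but Mki67 and Cenpf were no longer called in cells of 10000 to 20000 UMIs (log2 ratios of -1.86 and -2.40). Mki67 stood at 0.372, 0.553 and 10.2 CPM against 21.5, 8.30 and 39.0 CPM, highest in library 3 in both groups. Tg, thyroglobulin, showed the largest fold, at 4.10, 2.76 and 2.28 CPM against 192, 193 and 16.4 CPM, and its level lay in the Nkx2-1 cells (434 CPM) rather than in the cells that met the other limits with fewer than 3 marker genes (15.1 CPM), against which Tg was not called (log2 ratio -1.54). Chit1, Tmprss11e, Ly6c1 and Kif23 completed the 10 smallest ratios. The other Trp63-positive cells differed among themselves: Krt13 averaged 1415 CPM in the Krt5/Krt14-high cells, 163 CPM in the Nkx2-1 cells and 478 CPM in the cells with fewer than 3 marker genes.

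The Wnt pathway was followed by the role of its genes. Secreted Wnts bind Frizzled receptors with Lrp5 and Lrp6 to stabilise beta-catenin, or act through Ror1, Ror2 and Ryk without it. Wnt5b was the only ligand gene of the rule, and none of the other 7 counted ligands was called: Wnt4, the most abundant, was at 396, 390 and 476 CPM against 484, 496 and 564 CPM, and Wnt5a at 11.2, 16.0 and 10.9 CPM against 9.23, 2.11 and 5.41 CPM. Among 17 counted receptors and co-receptors, Ror1 and Ror2 were higher and none lower. Ror1 was at 40.6, 66.3 and 49.3 CPM against 17.7, 14.2 and 14.5 CPM, and Ror2 at 18.6, 8.84 and 18.4 CPM against 4.78, 1.38 and 3.63 CPM. Both were higher in members with Cntn5 or Ntng1, at 78.0 and 29.9 CPM, than in the rest, at 31.8 and 4.02 CPM. Of 13 counted inhibitors and modulators, Sostdc1, which blocks Wnt and BMP signals, was at 29.8, 9.39 and 18.9 CPM against 4.05, 1.76 and 3.98 CPM, and Nkd2, which dampens dishevelled, at 10.1, 13.8 and 8.60 CPM against 1.98, 1.78 and 1.44 CPM. Of 10 counted targets and transcription factors, Lef1 was higher, at 10.1, 5.53 and 16.0 CPM against 1.58, 1.56 and 2.05 CPM. None of the 12 counted planar polarity genes was called.

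Adhesion and guidance genes better known from neurons were described next. Lrrc4c, which encodes NGL-1, the partner of netrin-G1, was at 116, 135 and 102 CPM in members against 45.9, 38.2 and 33.4 CPM, and it was similar in members with Cntn5 or Ntng1 and the rest (114 and 122 CPM). The other counted genes of that family were not called (4 of 5), and neither was any of 5 counted contactin partners. Of 23 counted synaptic adhesion genes, 5 were higher and 1, Lsamp, was lower. Sdk1, a sidekick adhesion protein, was at 522, 537 and 272 CPM against 189, 150 and 79.9 CPM, and the latrophilin Adgrl3 at 380, 299 and 250 CPM against 168, 143 and 95.4 CPM. Cadm1 and the teneurin Tenm2, a latrophilin ligand, were also higher, with log2 ratios of 1.36 and 1.09. The list had a median log2 ratio of 0.53, beside 0.02 over all genes and 0.14 over the 2824 longest genes. The part of gene length in this median was not tested. Of 44 counted axon guidance genes, Sema3a (80.8, 79.0 and 100.2 CPM against 25.5, 24.6 and 28.5 CPM) and Slit2 were higher and none lower, and of 9 counted glypicans and syndecans Gpc6 was higher. None of 3 counted genes of the Nkain family and sodium pump or of 2 counted Mab21 family genes was called, and the EAG channels outside the rule were too low to be counted. Sdk1 was not confined to members and averaged 216 CPM in the Nkx2-1 cells.

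Fst was at 28.3, 17.1 and 18.2 CPM against 6.35, 1.96 and 3.95 CPM, the only one called of 23 counted BMP and TGF-beta genes. Fgfr1, a fibroblast growth factor receptor, was at 84.5, 69.6 and 56.3 CPM against 33.0, 17.8 and 20.1 CPM, and its ligand Fgf1 at 110, 117 and 82.1 CPM against 53.5, 42.2 and 40.2 CPM, 2 of 13 counted genes of that pathway. Ntrk3 was the only one called of 10 counted neurotrophic genes. Ntrk2, the receptor of a related neurotrophin, was at 5.59, 0.553 and 7.02 CPM against 7.88, 1.76 and 5.08 CPM.

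The levels of several of these genes followed the number of marker genes. Sox9, Itgb8, Frmd4a and Krt13 were named for their ratios in members. A difference between the sides of the member limit was thus favoured by that choice, and nothing is read from it. Among cells that met the other limits, Sox9 averaged 8.80, 11.4 and 14.2 CPM with 0, 1 and 2 marker genes, and 43.6, 144 and 168 CPM with 3, 4 and 5 or more. Itgb8 ran from 8.92 to 233 CPM over the same range, and Frmd4a reached 400 CPM with 5 or more. Krt13 ran the other way, at 645, 447 and 89.5 CPM with 0, 1 and 2 marker genes and at 87.1, 14.3 and 34.9 CPM with 3, 4 and 5 or more. Krt15 went from 4588 to 1667 CPM, while Itga6 was between 320 and 475 CPM throughout. Malat1, a nuclear RNA, averaged 21105 CPM with 0 and 25559 CPM with 5 or more. Sox9 in cells with exactly 3 marker genes lay between its levels with 2 and with 4. This range holds the member limit, so nothing is read from the place of the step. Depth changed with the number of marker genes too. With 0 the median was 7028, 12896 and 9322 UMIs, and with 2 it was 13070, 17206 and 13875.5. Cells with 5 or more had medians of 9482.5, 11022.5 and 10465.5 UMIs, and cells with exactly 3 had 13267.5, 14393 and 12823. The part of depth in these levels was not tested.

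**Figure D4:**
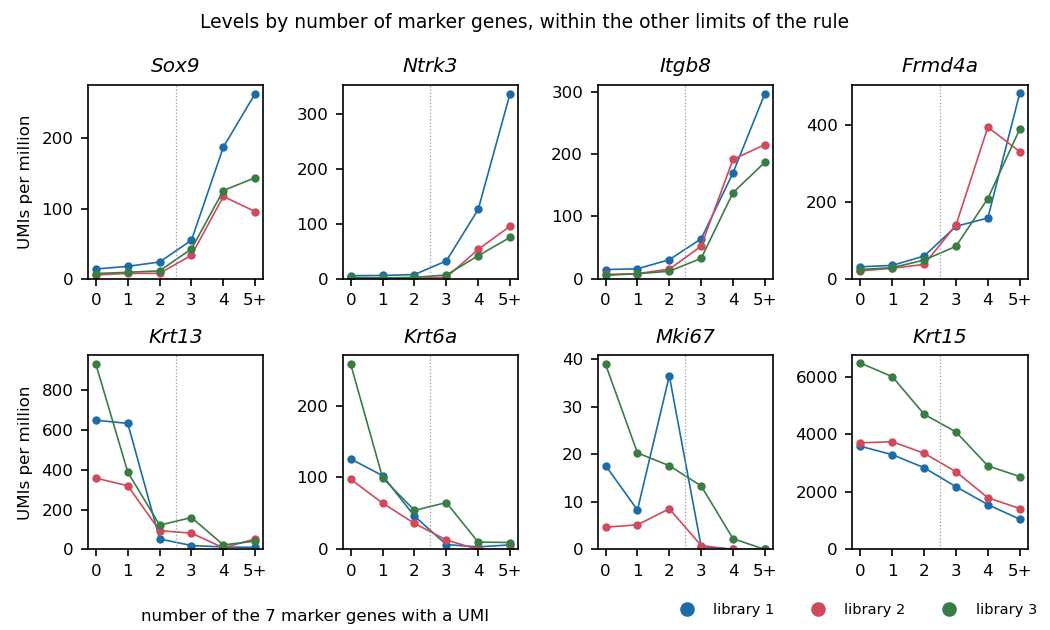
CPM of 8 genes in each library (y axis) by the number of the 7 marker genes with a UMI (x axis) among cells that met the other limits. Cells right of the dotted line are members. Sox9, Ntrk3, Itgb8 and Frmd4a are highest with 4 or 5 and more, and Krt13 with 0.

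Neighbourhoods computed without the genes of the rule and without Lrig1 gave a further view of the grouping, as a description. Among the 15 nearest neighbours of a member, 20.6% were members, where members were 2.82% of all Trp63-positive cells. The share was 35.2% for members with at least 4 marker genes and 12.5% for those with exactly 3. It was 32.6% for members with Cntn5 or Ntng1 and 9.49% for members with neither. Among non-members with at least 3 marker genes, it was 18.1% for Krt5/Krt14-high cells and 12.2% for Nkx2-1 cells. Nkx2-1 cells made up 35.2% of the neighbours of members and 26.2% of Trp63-positive cells. For cells that met the other limits with fewer than 3 marker genes, these shares were 36.7% and 52.3%. Neighbours came from another library in 40.3% of cases, and the share under random mixing was not computed. The libraries were not aligned to each other before this step. In the clustering described next, a cluster of 1665 cells held 799, 863 and 3 cells of libraries 1, 2 and 3. The part of library differences in these shares was not tested. In a clustering of all Trp63-positive cells, a single cluster of 879 cells (218, 153 and 508 per library) held 298 members, which were 45.5%, 48.4% and 33.2% of the members of libraries 1, 2 and 3, together with 2.21% of the other cells. It held 70.8% of the members with at least 4 marker genes, 67.8% of those with Cntn5 or Ntng1 and 12.6% of those with neither. In that cluster 71.3% of all cells had at least 3 marker genes, but 36.3% had at least 2 Nkx2-1 UMIs and so were not members. The Nkx2-1 limit thus ran through this cluster. Members were not all without Nkx2-1: 308 held 1 UMI of it and 455 held 0. Nkx2-1 averaged 28.5 CPM in members and 190 CPM in the Nkx2-1 cells. In the cells that met the other limits with fewer than 3 marker genes it averaged 15.9 CPM. In all, 894 cells with at least 2 Nkx2-1 UMIs (12.6% of them) held at least 3 marker genes, and 674 of these met every other limit of the rule. These 894 cells were set against the other Trp63-positive cells, of which they are part. Of the 104 genes called higher in members, 53 were at least 2-fold higher in each library in these cells, where 0.592% of all genes counted were. Sox9 averaged 55.2 CPM and Itgb8 70.0 CPM in them, against 16.5 and 24.0 CPM in all Nkx2-1 cells. Nothing is read from this overlap, because both groups were chosen by the same marker genes.

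The genes called higher were long. Their median span from first to last annotated base was 150 kb, against 28.7 kb for all genes counted and 22.9 kb for the genes called lower. Of the 104, 77 were among the 2824 longest genes, where 2.73% were called higher, against 0.212 to 0.460% in 3 groups of shorter genes of the same size. The 7 marker genes had a median span of 364 kb, and Gpc5 spanned 1433 kb and Cntn5 1246 kb. Nuclear RNAs summed to 27730, 25111 and 23268 CPM in members against 24149, 21729 and 20222 CPM, higher in each library. The log2 ratio of Malat1 was 0.21, and Neat1 was lower in each library, at 494, 508 and 515 CPM against 518, 540 and 537 CPM. Whether reads from introns were counted is not given in the sources used here, and the part of gene length in these calls was not tested. Sox9, with a span of 5.58 kb, and Mia, with 1.42 kb, were short exceptions among the 15 largest ratios.

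The study set Lrig1+ against Lrig1− cells, and the same question was asked within the members. Lrig1 was at 87.9, 118 and 110 CPM in members against 83.1, 92.4 and 93.8 CPM in the other Trp63-positive cells. A Lrig1 UMI was found in 52.2%, 57.9% and 58.9% of members and in 51.6%, 65.8% and 60.2% of the others, a mean difference of -2.90 ± 4.40 percentage points (SD, n = 3). At 5000 UMIs per cell the shares were 35.3%, 35.3% and 38.9% against 32.0%, 34.8% and 34.9%, a difference of 2.61 ± 1.84 points. In cells of 10000 to 20000 UMIs the difference was -1.28 ± 2.76 points, so the sign was not the same in these 3 measures, and the first and last were smaller than their SD. The thinned share was 4.90% in endothelial cells. Within the members it differed more. At 5000 UMIs, 29.2%, 28.8% and 28.5% of members with Cntn5 or Ntng1 held Lrig1, against 42.9%, 40.3% and 46.2% of members with neither, and the groups did not overlap. With 3 libraries no exact test of this difference can pass the 0.05 threshold.

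UMIs were summed over the members with a Lrig1 UMI (109, 73 and 252 cells) and without one (100, 53 and 176 cells), and 10691 genes were tested with edgeR, the genes of the rule and Lrig1 left out. No gene passed an adjusted p of 0.05 (0.00% of genes), with 734 under an unadjusted p of 0.05, and DESeq2 called 17. Lrig1+ and Lrig1− cells of a library share a pool of mice, so a fit with the library as a replicate block was also made. It called 213 genes (1.99%), of which 88 were raised and 125 reduced in Lrig1+ members. Lrig1+ members were deeper, with medians of 14239, 15736 and 14719.5 UMIs against 9228.5, 10583 and 8952, and the part of depth in these calls was not tested. Among cells of 10000 to 20000 UMIs, 3 of 9102 genes passed with the block, and they are named although not set by the rule for named genes: Cp and Apoe, lower, and Tll1, higher. Tll1 was not called with the block at all depths (log2 fold change 0.39, edgeR adjusted p = 0.551), and there it was at 217, 75.9 and 92.3 CPM in Lrig1+ against 111, 114 and 66.8 CPM in Lrig1− members.

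The genes called higher in members were looked up in the fit with the block, as a description. They were chosen from these same members, so nothing is read from their share. Of 103 such genes tested, 47 were lower and none higher in Lrig1+ members (45.6% of the list against 1.99% of all genes). Their median log2 fold change was -0.84 beside 0.00 over all genes. In cells of 10000 to 20000 UMIs 2 of these genes, Cp and Apoe, were called lower with the block. Lrig1 was detected in 43.2% of members with Cntn5 or Ntng1 and in 69.5% of those with neither. Lrig1+ and Lrig1− members were not compared within each of these groups, so the part of this mix was not tested. Cp, the copper-carrying ferroxidase ceruloplasmin, was at 262, 250 and 135 CPM in Lrig1+ members and 681, 516 and 315 CPM in Lrig1− members, with a log2 fold change of -1.22 (edgeR with the block, adjusted p = 0.000314). Apoe, apolipoprotein E, was at 819, 852 and 502 CPM and 1516, 1352 and 986 CPM (-0.85, adjusted p = 0.000942). For both genes, which were named after their values were seen, all 3 Lrig1+ sums lay below all 3 Lrig1− sums. BC006965 (-2.13, adjusted p = 0.00502), Sult5a1 (-2.13, 0.0147), Cxcl14 (-2.01, 0.0119), Serpina3n (-1.99, 0.0328) and Ces1f (-1.97, 0.0339) were the 5 with the largest decrease. Cxcl14, a chemokine, and Serpina3n, a protease inhibitor, differed widely between libraries, and Cxcl14 was at 58.6, 18.4 and 5.32 CPM in Lrig1− members. The 5 with the largest increase were Atf3 (3.30, adjusted p = 0.00380), C1ql3 (1.65, 0.0317), Styk1 (1.62, 0.0311), Muc1 (1.61, 0.0106) and Egr1 (1.60, 0.0348). Without the block none of these 10 genes passed, with adjusted p from 0.265 to 0.714 in edgeR. Muc1, a membrane mucin, was at 34.9, 30.5 and 37.4 CPM in Lrig1+ and 11.7, 5.02 and 14.2 CPM in Lrig1− members. Atf3 and Egr1 are early stress-response genes. With the block, 5 of 17 tested genes of the response to tissue dissociation (Atf3, Fos, Junb, Jun and Egr1) were higher in Lrig1+ members. Among all 10691 genes, 88 were. None of these 5 genes was called with the block in cells of 10000 to 20000 UMIs. The dissociation list was not raised in members as a whole, at 1988, 2640 and 2159 CPM against 3083, 3788 and 2490 CPM. Sox9 was lower in Lrig1+ members with the block, and Krt15 was higher.

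**Figure D5:**
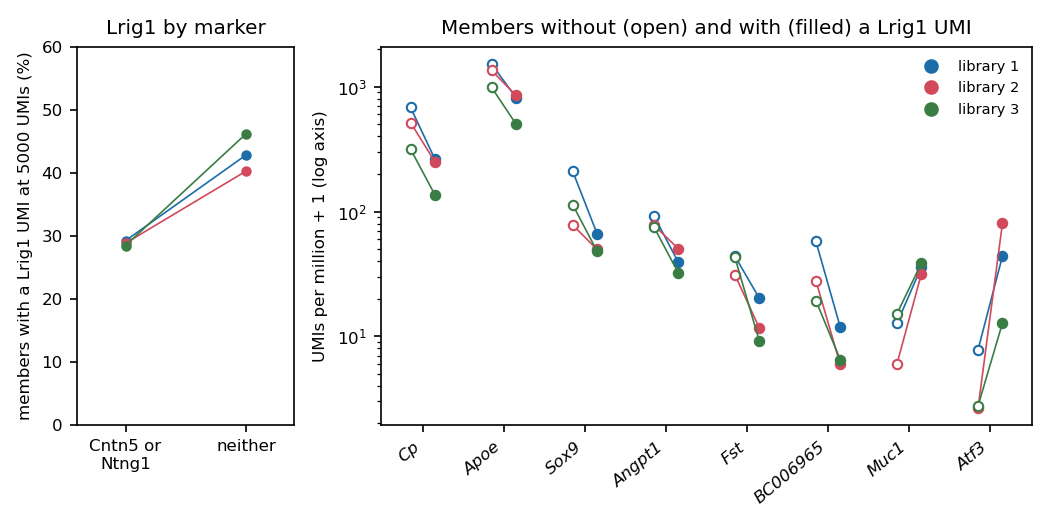
Left, the share of members with a Lrig1 UMI after thinning each cell to 5000 UMIs (y axis, percent), by whether a Cntn5 or Ntng1 UMI was present. Right, CPM + 1 (log axis) in members without (open) and with (filled) a Lrig1 UMI, joined within a library. Cp, Apoe, Sox9, Angpt1, Fst and BC006965 are lower with Lrig1 in every library, and Muc1 and Atf3 higher.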

How the data were processed

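The members, gene lists and marker lists were chosen with earlier results of these data known. UMI counts per gene and barcode were used as the authors deposited them, as whole numbers without normalization. Per the labels, libraries were made with the Chromium GEM-X 3' kit and, per the submitters' processing notes, processed with Cell Ranger 8.0.1 on mm39. The paper's doublet removal is not applied in the deposited counts.

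Counts were summed per library over the cells of a group and given as CPM. Ratios are log2 of CPM + 1. A gene was called higher or lower at 2-fold in each of 3 libraries, among genes with a mean of at least 5 CPM. The main test was edgeR 4.0.16 in R 4.3.3 (TMM, filterByExpr, glmQLFit, glmQLFTest, two-sided, Benjamini-Hochberg, threshold 0.05) on Lrig1+ against Lrig1− sums. Its main fit had no block. The deviations of the 2 sums of a library from their group means correlated by 0.262, 0.290 and 0.401, and those of different libraries by -0.237 to -0.0996, and the pairing follows from the shared pool. Only the fit without a block was run on simulated counts, which held no differences between libraries. The fit with the block was not simulated. Neighbours and clusters used scanpy 1.11.5 (2000 variable genes, 30 components, 15 neighbours, Leiden resolution 1). Doublet-like barcodes were scored against simulated doublets at 0.4% per 1000 barcodes.

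Named genes are those of the rule, the 15 largest and 10 smallest mean ratios among called genes (predicted models and genes named as antisense left out), called members of the lists, and for Lrig1 the 5 highest and 5 lowest of at least 10 CPM with 1 direction in 3 libraries, taken from the fit with the block because none passed without it. List members named with values but no call, and Cp, Apoe and Tll1, were chosen after their values were seen. Nothing in the labels says that the pools share no litter. Without the block, p-values measure the spread between these 3 pools. With the block, they measure how evenly Lrig1+ and Lrig1− sums differ within the pools. Alternatives were the DESeq2 1.42.0 test on the same sums, other scalings, filters, depths, doublet removal, and each library left out. Nrg1, whose symbol is shared by features, was left out. Some list members are not reported here.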

Additional observations from a re-analysis of the deposited data

How the results depend on the processing

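The share of Trp63-positive cells that were members (2.87%) was 10.5% with at least 2 and 1.07% with at least 4 marker genes, 1.97% with a Krt5 and Krt14 limit of 20 per 10000 and 2.21% with cells thinned to 5000 UMIs. With a limit of 80, without doublet-like barcodes or without any 1 library it was 2.66 to 3.13%. The 104 genes called higher became 51 in cells of 10000 to 20000 UMIs, 47 of them among the 104, and stayed between 82 and 131 otherwise. The 62 called lower became 120 without the filter on low values, 122 without doublet-like barcodes, and 66 to 124 with a library left out, the highest without library 3. With a library left out the 2-fold limit had to hold only in the remaining libraries, so more calls there are partly built in. Of the 25 genes named for the size of their ratio, none changed direction under the 10 alternatives. They were chosen for a 2-fold difference in each of 3 libraries. Leaving out a library, the lower pseudocount or no filter therefore could not reverse them. Calls were lost 13 times: by 7 genes in cells of 10000 to 20000 UMIs (Trpc5, Cadps, Krt6a, Krt13, Cenpf, Mki67 and Kif23), by Tg and Kif23 against the cells with fewer than 3 marker genes, by Mia, Trpc5 and Ano4 without library 1 and by Kif23 without library 3. A lost call was not always a smaller mean ratio: the log2 ratio of Krt6a was -3.28, of Krt13 -3.04 and of Ano4 2.49 where their calls were lost. The cause of these changes was not tested.

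The count of genes past the threshold between Lrig1+ and Lrig1− members was 0, and 0 with each library left out, with DESeq2's size factors in edgeR and in cells of 10000 to 20000 UMIs. It was 213 with the replicate block, 17 with DESeq2, 317 with no filter on low counts and 10 without doublet-like barcodes. With the block and cells of 10000 to 20000 UMIs, an alternative chosen after seeing the data like that without myoepithelial cells, it was 3. The block changed the call of each of the 10 genes named from it. The Lrig1 share difference of -2.90 percentage points became 2.61 with thinned cells and lay between -4.61 and -0.413 with a library left out. It was -1.28 in cells of 10000 to 20000 UMIs. Depth limits membership, since a member may rest on 1 UMI of each of 3 genes: 39.1% of the members with Wnt5b and 22.4% of those with Cntn5 held a single UMI of it.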

Other observations

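In 5 further lists no gene was called, which does not show equal levels. None of 30 counted pharyngeal and foregut transcription factors was called, with a median log2 ratio of 0.13. Pax9, a pharyngeal factor, was at 203, 186 and 236 CPM in members against 140, 158 and 191 CPM, and Tbx1, of the pharyngeal arches, at 54.7, 59.1 and 65.4 CPM against 67.6, 82.7 and 80.2 CPM. None of 17 counted stratification factors, 14 Notch genes, 10 Hedgehog genes or 12 genes of the Lrig and ErbB families was called. The summed Notch genes were at 1903, 1784 and 1793 CPM in members against 1611, 1532 and 1552 CPM, and the Hedgehog genes at 547, 514 and 513 CPM against 453, 433 and 409 CPM, higher in each library. Lrig3 was at 117, 145 and 124 CPM against 98.2, 110 and 100.2 CPM, and Egfr, the receptor that Lrig1 restrains, at 502, 443 and 422 CPM against 359, 314 and 335 CPM. Notch1 was at 100.2, 92.3 and 93.3 CPM against 92.0, 83.5 and 92.0 CPM.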
